A study of Homo sapiens with 4 samples.

Results

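The insulin-like growth factor (IGF) binding proteins and the receptors of the IGF and insulin family were compared between the sublines 786-O-Ctrl (VHL-null) and 786-O-VHL (VHL-restored). The members were named by gene symbol as IGFBP1 to IGFBP7, IGF1R, IGF2R and INSR. Of these 10 genes, 9 were found among the 12912 genes of the count table, and IGFBP2 was not analysed here. The line 786-O derives from a clear cell renal carcinoma and has no functional VHL, the substrate-recognition subunit of the ubiquitin ligase that marks hypoxia-inducible factor (HIF) α proteins for degradation. 786-O-Ctrl kept the VHL-null genotype, and VHL was restored in 786-O-VHL with a pBabe-puro retroviral vector that encodes HA-tagged wild-type VHL. The labels name the triple-reporter derivatives of both sublines, which stably express GFP, luciferase and thymidine kinase from a further retroviral vector, and all cells grew in RPMI1640 with 10% FBS. Whether 786-O-Ctrl received an empty vector, and whether either subline is 1 clone, is not given in the sources used here. RNA was taken in duplicate from each subline (n = 2 libraries per group), so p-values measure the spread between libraries of 1 control and 1 restored subline.

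IGF1, IGF2 and insulin signal through IGF1R and INSR, receptor tyrosine kinases that are closely related and can pair into hybrid receptors. IGF2R, also known as the cation-independent mannose 6-phosphate receptor, lacks a kinase domain, carries IGF2 to the lysosome and sorts newly made lysosomal enzymes. The IGF binding proteins (IGFBPs) are secreted proteins that hold IGFs outside the cell, limit or prolong access to the receptors, and have IGF-independent actions. IGFBP7 differs from the others in its low affinity for IGFs. The transcription of IGFBP1 and IGFBP3 is known to respond to hypoxia in several cell types. The question that the comparison addresses is how these genes differ in mRNA level between VHL-null and VHL-restored cells of the same line.

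The counts summed to between 2807779 and 22141263 per library, and 786-O-VHL replicate 1 was the shallow library, where 3 counts correspond to 1.02 CPM (the count as a rate of the library's total, corrected by TMM factors). The 2 786-O-Ctrl libraries share a column name in the table and are named here as deeper and shallower. VHL itself was at 42.9 and 43.9 CPM in 786-O-Ctrl against 178 and 163 CPM in 786-O-VHL, and its log2 fold change was 1.96 ± 0.0706 (SE, adjusted p = 2.86e-19, edgeR), in the direction of the labels. Of the 12335 genes tested, 7956 (64.5%) were called at an adjusted p (FDR) under 0.05, 4017 of them higher and 3939 lower in 786-O-VHL. Scaled by library totals alone, 5077 were higher and 3097 lower. All 11 markers of renal epithelium and of clear cell carcinoma lines had a row, with a summed level of 4298 to 4306 CPM in 786-O-Ctrl and 2857 to 2889 CPM in 786-O-VHL. VIM alone had a mean of 1684 CPM in 786-O-Ctrl and 730 CPM in 786-O-VHL. Of the 11, 5 were called lower, 2 (CDH16 and NNMT) higher and 4 were not called, beside the 64.5% of all genes called. Markers of other cell types were low: 1 of 6 leukocyte markers had a row, summing to at most 1.02 CPM, 3 of 5 endothelial markers summed to at most 1.33 CPM, 3 of 6 fibroblast markers to 10.4 to 11.4 CPM in 786-O-Ctrl and 14.6 to 15.3 CPM in 786-O-VHL, and of 4 hepatocyte markers SERPINA1 alone had a row, at 25.5 to 34.6 CPM. Their part in the results was not tested.

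Of the 9 members, INSR, IGFBP5, IGFBP7 and IGFBP6 were higher in 786-O-VHL, by 4.30, 1.14, 0.88 and 0.43 on the log2 scale, and IGFBP1 and IGFBP3 were lower, at -2.11 and -0.66. That is 6 of 9 called at an FDR under 0.05, beside 64.5% of all genes tested, so the share of members called was near the background. By direction, 4 of 9 were higher, beside 32.6% of all genes, and 2 of 9 lower, beside 31.9%. The libraries of the groups did not overlap for 7 of the 9 members, beside 80% of all genes. The median log2 fold change of the members was 0.13, and that of all genes 0.02. INSR and IGFBP1 were also past a 4-fold change with an FDR under 0.01, which 4.46% of all genes passed, 2.92% upward and 1.54% downward. IGFBP4, IGF1R and IGF2R were not called. In these bulk libraries, fewer cells that express a gene and less of its mRNA per cell cannot be told apart.

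**Figure D1:**
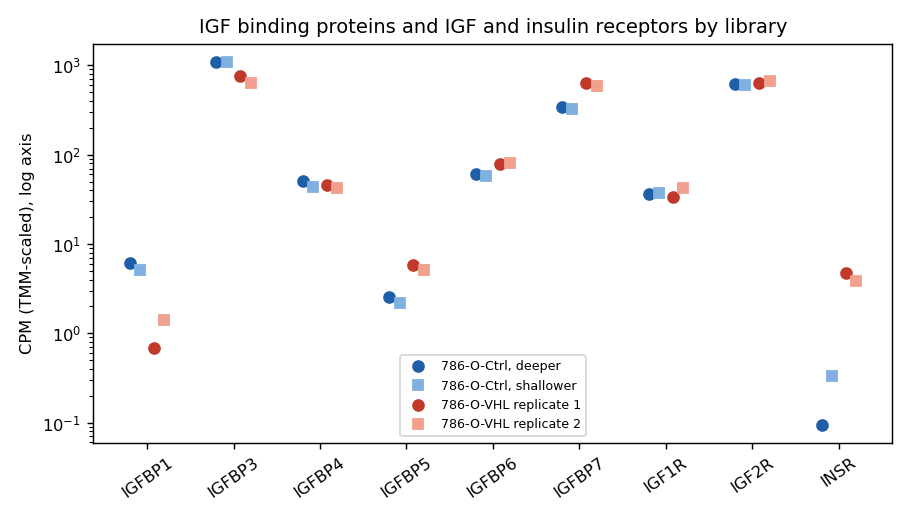
TMM-scaled CPM (log axis) of the 9 members in each of the 4 libraries, with 786-O-Ctrl in blue and 786-O-VHL in red. INSR rises from 0.095 and 0.332 CPM to 4.75 and 3.80 CPM, IGFBP1 and IGFBP3 lie lower in both 786-O-VHL libraries, and the points of IGFBP4 and IGF1R overlap between the groups.

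The promoters of IGFBP3, INSR and IGF2R are shown because they belong to a member that fell, the member that rose most and a member that was not called. Each is the 250 bases before the start of the gene in the RefSeq set of build GRCh38.p14, 5′ to 3′ on the strand of the gene: chr7:45921273-45921522 (minus) for IGFBP3, chr19:7294415-7294664 (minus) for INSR and chr6:159968832-159969081 (plus) for IGF2R. Capitals mark the letters ACGTG or GCGTG on either strand (CACGT or CACGC when read on the printed strand), the core to which HIF is known to bind, and overlapping matches are counted once.
IGFBP3: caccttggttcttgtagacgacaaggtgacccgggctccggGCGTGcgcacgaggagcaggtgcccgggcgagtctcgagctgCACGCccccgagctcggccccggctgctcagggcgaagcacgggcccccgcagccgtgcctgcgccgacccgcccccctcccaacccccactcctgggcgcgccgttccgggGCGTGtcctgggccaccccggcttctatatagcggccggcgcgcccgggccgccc
INSR: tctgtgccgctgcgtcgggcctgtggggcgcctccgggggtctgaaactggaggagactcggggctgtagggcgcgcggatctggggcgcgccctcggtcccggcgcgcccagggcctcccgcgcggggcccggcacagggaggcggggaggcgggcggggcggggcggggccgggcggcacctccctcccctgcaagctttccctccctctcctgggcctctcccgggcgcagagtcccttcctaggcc
IGF2R: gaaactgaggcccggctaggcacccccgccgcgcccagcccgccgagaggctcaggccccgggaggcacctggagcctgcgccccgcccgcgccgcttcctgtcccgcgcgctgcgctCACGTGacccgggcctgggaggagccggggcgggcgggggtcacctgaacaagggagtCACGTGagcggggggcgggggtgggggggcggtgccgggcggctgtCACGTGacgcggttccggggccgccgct
The IGFBP3 window holds 3 matches, all of them GCGTG, at 209, 167 and 55 bases before the start. Of 35116 promoter windows of this length, 5.56% hold 3 or more matches of either kind, and 2.89% hold 3 or more GCGTG. The INSR window holds neither of them, and 43.2% of all windows hold at least 1. The IGF2R window also holds 3 matches, as do the 5.56% above. Each lies inside the palindrome CACGTG, singled out after the window was read, which 0.0797% of windows hold 3 or more times. Among the other members with an entry, IGF1R has 5 matches, IGFBP4, IGFBP5 and IGFBP6 have none, and of 3 windows of IGFBP2 1 has a match. IGFBP1 and IGFBP7 have no promoter entry. The background shares are over all windows, whatever their GC content, which was 76% for IGFBP3, 78.4% for INSR and 79.2% for IGF2R. A match describes letters in a window and does not show a bound site, and binding of HIF was not tested.

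IGFBP1 and IGFBP3 were the binding proteins that were lower in 786-O-VHL. IGFBP1 (ENSG00000146678.10, chr7:45927959-45933259, plus strand, GRCh37) encodes a binding protein that the liver secretes under the control of insulin. In 786-O-Ctrl it was counted 128 times in the deeper library and 77 times in the shallower one, and in 786-O-VHL 2 times in replicate 1 and 24 times in replicate 2. This corresponds to 6.08 and 5.12 CPM against 0.678 and 1.43 CPM, so that both 786-O-VHL libraries lay below both 786-O-Ctrl libraries. The log2 fold change was -2.11 ± 0.324 (SE, adjusted p = 1.98e-06, edgeR), which ranked 170 from the lowest of 12335 genes. Over the summed counts of each group, 205 against 26, the rate in 786-O-Ctrl was 4.32 times that in 786-O-VHL (95% exact interval 2.87 to 6.77, counting error only). Without 786-O-VHL replicate 1, where IGFBP1 had 2 counts, the log2 fold change was -1.98, and without replicate 2 it was -3.05.

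IGFBP3 (ENSG00000146674.15, chr7:45951844-45961473, minus strand) encodes the main carrier of IGFs in blood. It was at 1088 and 1079 CPM in 786-O-Ctrl and at 752 and 635 CPM in 786-O-VHL. The groups were apart, and the 786-O-VHL libraries differed more from each other than the 786-O-Ctrl libraries did. Its log2 fold change was -0.66 ± 0.0674 (adjusted p = 1.68e-09, edgeR), a level in 786-O-Ctrl 1.58 times that in 786-O-VHL. IGFBP1 and IGFBP3 are neighbors on chromosome 7, where their annotated ends face each other across 18584 bases. Within 500 kb of either, the other was the only gene tested. This window was chosen after the values were seen.

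IGFBP7, IGFBP6 and IGFBP5 were higher in 786-O-VHL. IGFBP7 (ENSG00000163453.11, chr4:57896939-57976551, minus strand), a secreted protein of the vascular and epithelial matrix, was at 339 and 328 CPM in 786-O-Ctrl and at 636 and 594 CPM in 786-O-VHL. Both 786-O-VHL libraries lay above both controls, and the log2 fold change was 0.88 ± 0.062 (adjusted p = 7.01e-13, edgeR), a level 1.84 times that in 786-O-Ctrl. Its exons share 260 bases with POLR2B on the opposite strand, and whether counting used strand is not given in the sources used here. POLR2B had a log2 fold change of -0.37, opposite in sign to that of IGFBP7.

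IGFBP6 (ENSG00000167779.9, chr12:53491220-53496129, plus strand), which prefers IGF2 over IGF1, was at 60.6 and 58.2 CPM in 786-O-Ctrl and at 78.0 and 80.8 CPM in 786-O-VHL. Its libraries did not overlap between the groups. The difference on the log2 scale was 0.43 ± 0.0721 (adjusted p = 8.22e-06, edgeR). With every library thinned to the depth of the shallowest, the change was 0.61 and was no longer called (adjusted p = 0.0785, edgeR).

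IGFBP5 (ENSG00000115461.5, chr2:217536828-217560272, minus strand), a binding protein that attaches to extracellular matrix, was rare in every library, with 54 and 33 counts in the controls against 17 and 87 counts in 786-O-VHL. Scaled to depth these were 2.56 and 2.19 CPM against 5.77 and 5.17 CPM. Both 786-O-VHL libraries were above both 786-O-Ctrl libraries, the shallow one included. In edgeR the log2 fold change was 1.14 ± 0.274 (adjusted p = 0.000655, edgeR), and the rate over the summed counts was 2.18 times that in 786-O-Ctrl (95% exact interval 1.62 to 2.93, counting error only). The annotated exons of IGFBP5 overlap the antisense gene DIRC3-AS1, which was not analysed here. IGFBP2, the neighbor of IGFBP5 at 7668 bases, was not analysed here either.

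IGFBP4 (ENSG00000141753.7, chr17:38599702-38613977, plus strand), a binding protein that inhibits IGF action until it is cleaved, was at 50.3 and 43.9 CPM in 786-O-Ctrl and at 45.5 and 42.8 CPM in 786-O-VHL. The groups overlapped. The log2 fold change was -0.12 with a 95% interval of -0.31 to 0.06 (adjusted p = 0.237, edgeR), and it was 0.01 when libraries were scaled by their totals alone, a scaling that moves the median of all genes up by 0.13.

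**Figure D2:**
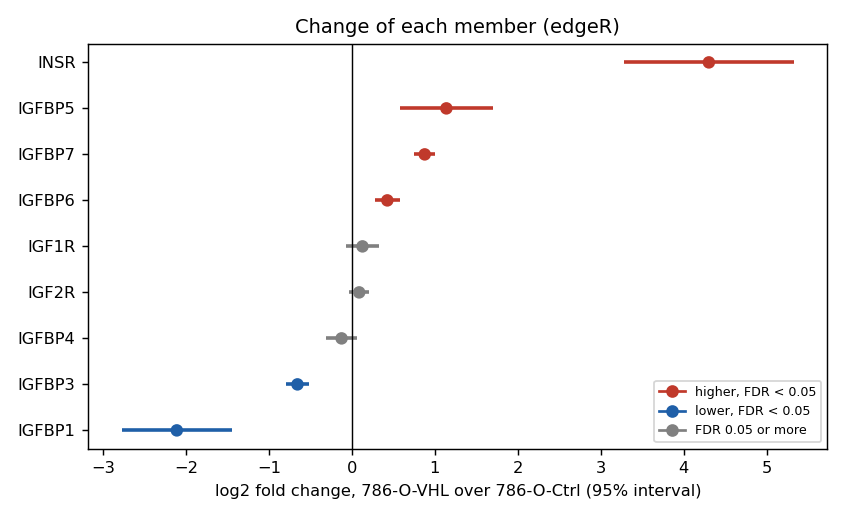
Log2 fold change of each member in 786-O-VHL over 786-O-Ctrl, with its 95% interval from edgeR, drawn red for members called higher, blue for members called lower and grey for the rest. INSR at 4.30 and IGFBP1 at -2.11 lie at the ends, and the intervals of IGF1R, IGF2R and IGFBP4 cross 0.

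Compared per length, IGFBP3 and IGFBP7 exchanged places at the top of the order. Levels between genes are given as CPM per kilobase (kb) of annotated exon. In 786-O-Ctrl, IGFBP3 came first at 237 ± 1.36 CPM per kb (SD, n = 2), followed by IGFBP7 at 173 ± 4.21. In 786-O-VHL, IGFBP7 came first at 319 ± 15.5 CPM per kb and IGFBP3 followed at 152 ± 18.1. The ratio of the IGFBP3 level to the IGFBP7 level was 1.36 and 1.39 in the 786-O-Ctrl libraries and 0.499 and 0.451 in the 786-O-VHL libraries. With 2 libraries in each group, an exact two-sided permutation test of such a ratio cannot go below p = 0.333, so no p is given.

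After these came IGFBP6, IGF2R and IGFBP4 in the same order in both sublines, at 44.1, 27.3 and 21.3 CPM per kb in 786-O-Ctrl and at 59.0, 28.9 and 20.0 CPM per kb in 786-O-VHL. The lowest members of 786-O-Ctrl were IGFBP1 at 3.41, IGF1R at 2.64, IGFBP5 at 0.368 and INSR at 0.0197 CPM per kb, and the libraries of neighbors in this order did not overlap. In 786-O-VHL these were IGF1R at 2.72, IGFBP5 at 0.845, IGFBP1 at 0.641 and INSR at 0.395 CPM per kb. There, IGFBP5 was not apart from IGFBP1, nor IGFBP1 from INSR. The order was the same with the longest transcript of each gene as its length.

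Summed over the 6 IGFBPs, the level was 486 and 473 CPM per kb in 786-O-Ctrl and 574 and 528 CPM per kb in 786-O-VHL. IGFBP3 made up 49.5% ± 0.680 (SD, n = 2) of this sum in 786-O-Ctrl, and 28.7% and 26.3% of it in the 786-O-VHL libraries. IGFBP7 made up 36.2% and 35.9%, and then 57.4% and 58.3%. The summed level thus lay above 786-O-Ctrl in both 786-O-VHL libraries, with IGFBP7 in the place that IGFBP3 held. IGFBP7, whose affinity for IGFs is low, was at 176 and 170 CPM per kb in 786-O-Ctrl and at 330 and 308 in 786-O-VHL. IGFBP3 was at 238 and 236 against 165 and 139 CPM per kb. Without IGFBP7, the sum of the other IGFBPs lay below 786-O-Ctrl in both 786-O-VHL libraries. IGFBP6 took 9.21% ± 0.0812 (SD, n = 2) in the controls against 10.7% ± 0.900 in 786-O-VHL, and IGFBP1 0.711% ± 0.0725 and 0.118% ± 0.0654. The shares depend on the lengths used: with the longest transcript, IGFBP3 had 57.1% and 33.6% and IGFBP7 32.4% and 55.0%, the control value first.

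**Figure D3:**
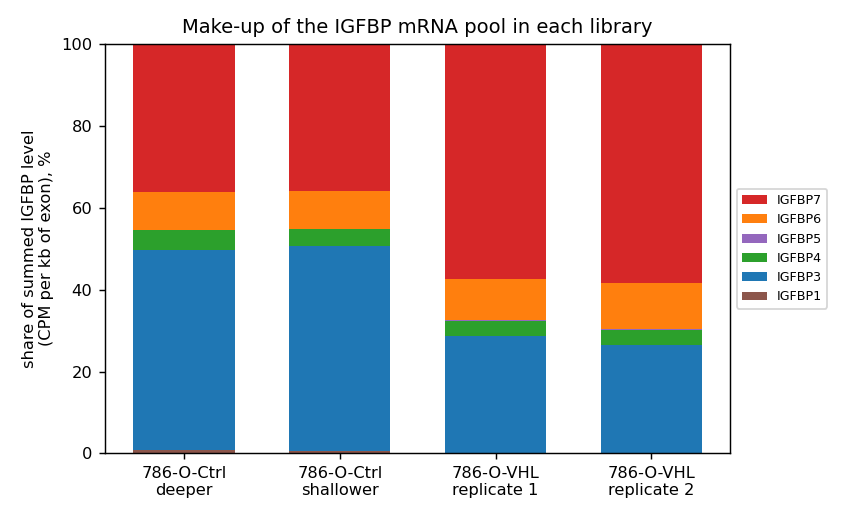
Share of each IGFBP (%) in the summed IGFBP level, in CPM per kb of annotated exon, for each of the 4 libraries, with bars that add to 100%. IGFBP3 (blue) takes 49.5% of the bar on average in 786-O-Ctrl, against 28.7% and 26.3% in 786-O-VHL, and IGFBP7 (red) takes 57.4% and 58.3% in 786-O-VHL.

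Among the receptors, INSR alone was called. INSR (ENSG00000171105.14, chr19:7112266-7294425, minus strand), the insulin receptor, whose shorter isoform also binds IGF2, was counted 2 times in the deeper 786-O-Ctrl library and 5 times in the shallower one, but 14 times in replicate 1 of 786-O-VHL and 64 times in replicate 2. Its levels were 0.095 and 0.332 CPM in 786-O-Ctrl and 4.75 and 3.80 CPM in 786-O-VHL. INSR was thus near the limit of detection in 786-O-Ctrl and was counted in both 786-O-VHL libraries, including the shallow one. It passed the filter on low counts through the 786-O-VHL libraries alone. The log2 fold change was 4.30 ± 0.500 (SE, adjusted p = 1.72e-08, edgeR), the rank 42 from the highest of 12335 genes. The rate over the summed counts, 78 against 7, was 20.3 times that in 786-O-Ctrl (95% exact interval 9.41 to 52.2, counting error only). The size of the fold rests on few control counts: the log2 fold change was 5.28 without the shallower 786-O-Ctrl library, 3.56 without the deeper one, and 6.72 with every library thinned to the depth of the shallowest (adjusted p = 0.0262, edgeR). The isoforms of INSR were not counted apart.

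IGF1R (ENSG00000140443.15, chr15:99191768-99507759, plus strand), the receptor that carries most IGF1 signaling, was at 36.6 and 37.1 CPM in 786-O-Ctrl and at 33.2 and 42.5 CPM in 786-O-VHL. The 786-O-VHL libraries lay on either side of the 786-O-Ctrl libraries. On the log2 scale the change was 0.13 with a 95% interval of -0.07 to 0.33 (adjusted p = 0.26, edgeR). It was called at 0.26 with library totals alone (adjusted p = 0.0218, edgeR) and at 0.21 without 786-O-VHL replicate 1 (adjusted p = 0.0406, edgeR), and it was -0.15 without replicate 2, so its direction turned on which 786-O-VHL library was kept.

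IGF2R (ENSG00000197081.14, chr6:160390114-160534539, plus strand) was the most abundant receptor mRNA per kb of exon. Its CPM, not scaled to length, was 624 and 611 in the controls against 632 and 676 in 786-O-VHL. The groups did not overlap. Their means were 617 ± 9.43 CPM in the controls and 654 ± 31.4 CPM in 786-O-VHL (SD, n = 2). The log2 fold change was 0.09 with a 95% interval of -0.04 to 0.21 (adjusted p = 0.206, edgeR). It was called at 0.22 with library totals alone (adjusted p = 0.00175, edgeR) and at 0.13 without 786-O-VHL replicate 1 (adjusted p = 0.00657, edgeR). The exons of IGF2R share 571 bases with the pseudogene CHP1P2 on the same strand.

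Of the summed INSR and IGF1R level per kb, INSR made up 0.333% and 1.14% in the 786-O-Ctrl libraries and 15.5% and 10.3% in the 786-O-VHL libraries. IGF1R thus remained the more abundant of the related kinase receptors in each library. The IGF2R level was 10.5 and 10.2 times the IGF1R level in 786-O-Ctrl and 11.7 and 9.81 times in 786-O-VHL, which overlap.

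The other genes of the pathway were taken from lists of 76 genes, of which 63 were tested. Of these, 25 were higher and 22 lower in 786-O-VHL, which is 74.6% called, beside 64.5% of all genes. Their median log2 fold change was 0.10. The count of lower genes was 11 without the deeper 786-O-Ctrl library, and with library totals alone 31 were higher and 10 lower. Each list below is to be read against the 32.6% of all genes called higher and the 31.9% called lower. Of 32 called genes chosen for naming below that were tested with every library thinned to the depth of the shallowest, 20 were no longer called. The ligands IGF1, IGF2 and INS and the acid-labile subunit IGFALS were not analysed here.

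The proteases that cleave IGFBPs, with their inhibitors, moved in both directions: 4 of 8 were higher and 4 lower, with a median of 0.15. PAPPA2, which cleaves IGFBP3 and IGFBP5, was at 1.99 and 1.46 CPM in 786-O-Ctrl and at 12.2 and 12.1 CPM in 786-O-VHL (log2 fold change 2.77 ± 0.239, adjusted p = 5.01e-11, edgeR). PAPPA, which cleaves IGFBP4, was at 1.33 and 1.66 CPM against 4.75 and 4.51 CPM (1.62 ± 0.317, adjusted p = 5.98e-05, edgeR). STC1, a stanniocalcin that inhibits both of these proteases, was at 49.2 and 49.4 CPM against 5.43 and 5.52 CPM (-3.16 ± 0.134, adjusted p = 1.05e-17, edgeR). So both pappalysins were higher and this inhibitor lower. After thinning, PAPPA was at 0.50 and was not called (adjusted p = 0.721, edgeR), whereas PAPPA2 and STC1 were. STC2, the related inhibitor, moved the other way, from 312 and 345 CPM to 457 and 535 CPM (0.61 ± 0.07, adjusted p = 1.39e-08, edgeR). Of the remaining proteases, CTSD (cathepsin D, a lysosomal protease) was higher by 0.58 on the log2 scale. HTRA1, which cleaves IGFBP5, had a log2 fold change of -0.66, and the metalloproteases ADAM9 and ADAM12 had -0.48 and -0.28. HTRA1 was at 140 and 101 CPM in 786-O-VHL replicates 1 and 2. Its change was -0.82 without replicate 1 and -0.35 without replicate 2, and it was not called after thinning (adjusted p = 0.145, edgeR). ADAM12 was no longer called with library totals alone (adjusted p = 0.11) or in DESeq2 (adjusted p = 0.0518).

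The IGFBP-related proteins, which carry an IGFBP-like domain and bind IGFs weakly, were higher in 4 of 4 tested, beside 32.6% of all genes, with a median of 0.79. After thinning, 2 of the 4 were called. CCN3 was at 1.76 and 2.46 CPM in 786-O-Ctrl and at 13.9 and 7.24 CPM in 786-O-VHL (log2 fold change 2.10 ± 0.29, adjusted p = 3.58e-07, edgeR). It was 2.74 without 786-O-VHL replicate 2 and 1.81 without replicate 1. KAZALD1 and CCN1, both secreted into the matrix, had log2 fold changes of 0.80 and 0.78. The other 5 of the 9 genes of this list were not tested.

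Of 11 genes listed as receptor adaptors or their partners (SOS1 and SOS2 among them), 5 were higher and 3 lower, with a median of -0.05. IRS2, a main substrate of INSR and IGF1R, was at 387 and 393 CPM in 786-O-Ctrl and at 133 and 145 CPM in 786-O-VHL (log2 fold change -1.47 ± 0.0667, adjusted p = 4.29e-17, edgeR). The INSR and IRS2 mRNAs therefore moved in opposite directions. IRS1, a related substrate, was at 221 and 233 CPM against 203 and 228 CPM and was not called (-0.05, adjusted p = 0.495, edgeR). SH2B2, GAB1 and GRB10, an adaptor that inhibits both receptors, had log2 fold changes of 1.23, 0.77 and 0.46. GAB1 was not called without 786-O-VHL replicate 2 (adjusted p = 0.0822, edgeR), and neither GAB1 nor SH2B2 was called after thinning (adjusted p = 0.173 and 0.122, edgeR). SHC1 and GRB2, which link the receptors to RAS, had -0.27 and -0.24, and neither was called with library totals alone (adjusted p = 0.0615 and 0.136, edgeR).

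Of 16 genes of phosphoinositide 3-kinase, AKT and FOXO signaling, 7 were higher and 4 lower, with a median of 0.24. In DESeq2 these were 3 and 2, and with library totals alone 9 and 1. INPP4B, a lipid phosphatase that opposes AKT, was at 7.79 and 6.85 CPM in 786-O-Ctrl and at 21.4 and 18.4 CPM in 786-O-VHL (log2 fold change 1.38 ± 0.159, adjusted p = 1.53e-08, edgeR). FOXO4, a transcription factor that AKT inhibits, had a log2 fold change of 1.06. Neither INPP4B nor FOXO4 was called after thinning (adjusted p = 0.0715 and 0.189, edgeR). AKT1 was at 229 and 226 CPM against 154 and 150 CPM (-0.59 ± 0.0643, adjusted p = 5.23e-09, edgeR). PHLPP1, which dephosphorylates AKT, and the regulatory subunit gene PIK3R1 had -0.37 and -0.32. The calls of PHLPP1 and PIK3R1 were lost in DESeq2 (adjusted p = 0.0975 and 0.251) and with library totals alone (adjusted p = 0.109 and 0.219, edgeR).

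The 15 genes that make the mannose 6-phosphate tag or sort the cargo of IGF2R were lower in 8 and higher in 3, beside 31.9% and 32.6% of all genes, with a median of -0.18. With library totals alone 3 were lower and 6 higher, and without the deeper 786-O-Ctrl library 3 were lower and 1 higher. GNPTAB, the catalytic subunit of the enzyme that makes the tag, was at 61.5 and 60.9 CPM in 786-O-Ctrl and at 29.9 and 30.5 CPM in 786-O-VHL (log2 fold change -1.01 ± 0.0872, adjusted p = 4.79e-11, edgeR). GNPTG, another subunit of that enzyme, had 0.35. VPS29 and VPS35, parts of the retromer that returns IGF2R to the Golgi, had -0.61 and 0.15, and the Golgi adaptors GGA2 and GGA1 had -0.54 and 0.27. The call of VPS35 was lost with RLE size factors (adjusted p = 0.0755, edgeR) and in DESeq2 (adjusted p = 0.226), as was that of GGA1 in DESeq2 (adjusted p = 0.0629). After thinning, only 1 of the 15 genes was called, GNPTAB (adjusted p = 0.00612, edgeR), so VPS29, GGA2 and GNPTG were not.

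Of 6 genes for receptor phosphatases and maturation, 2 were lower and none higher, with a median of 0.04. FURIN, a protease that cleaves the precursors of IGF1R and INSR, had a log2 fold change of -0.44, and PTPRF, a phosphatase that acts on INSR, -0.18. PTPRF was not called with library totals alone (adjusted p = 0.477, edgeR), and neither FURIN nor PTPRF was called after thinning (adjusted p = 0.341 and 0.108, edgeR). Of the 3 IGF2 mRNA-binding proteins, IGF2BP1 and IGF2BP3 were higher and IGF2BP2 lower. IGF2BP3 was at 51.5 and 53.9 CPM in 786-O-Ctrl and at 91.9 and 96.1 CPM in 786-O-VHL (0.85 ± 0.0717, adjusted p = 2.94e-11, edgeR). IGF2BP1 had 3 and 4 counts against 5 and 21 counts (2.72 ± 0.628, adjusted p = 0.000435, edgeR). These were 0.142 and 0.266 CPM against 1.70 and 1.25 CPM, so IGF2BP1 passed the filter on low counts through the 786-O-VHL libraries alone. It was not tested after thinning, with at least 10 counts in every library, or without 786-O-VHL replicate 2. IGF2BP2 had a log2 fold change of -0.32.

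**Figure D4:**
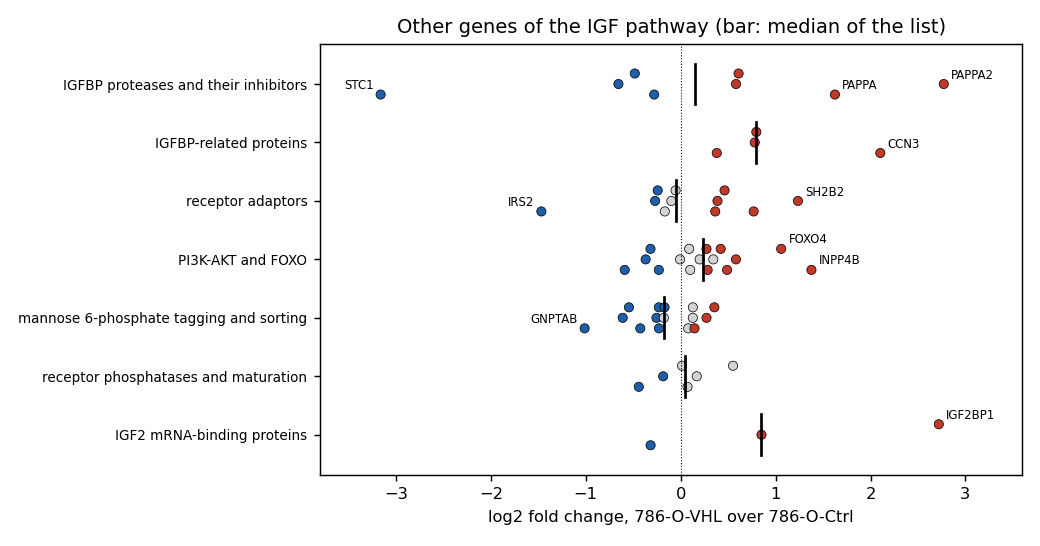
Log2 fold change, 786-O-VHL over 786-O-Ctrl, of the 63 other IGF pathway genes tested, by list, with red points called higher, blue points called lower, grey points not called and a black bar at the median of each list. PAPPA2 at 2.77 and STC1 at -3.16 span the proteases and their inhibitors, IRS2 at -1.47 is the lowest adaptor, and 8 of the 15 mannose 6-phosphate genes are blue.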

How the data were processed

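RNA was extracted in duplicate from each subline, and reads were aligned to hg19 by the authors, who deposited whole-number raw counts for 12912 genes. The submitters' processing notes name CASAVA and STAR. How reads were counted (tool, strand, annotation) is not given in the sources used here. Both 786-O-Ctrl columns carry the same replicate number and were used as unnumbered replicates.

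Counts were tested with edgeR 4.0.16 (R 4.3.3) over all 4 libraries: filterByExpr at a minimum count of 10 (12335 genes kept), TMM scaling, the quasi-likelihood F test with group as the only term, and Benjamini-Hochberg adjustment over all genes tested. Adjusted p-values (FDR) under 0.05 were called. DESeq2 1.42.0, limma-voom (limma 3.58.1), other scalings and filters, thinning and leaving out each library were alternatives. Rate ratios have exact 95% intervals on the summed counts of each group. These cover counting error only and not the spread between libraries, and the counts carry no molecular identifiers. A count of 0 allows up to 3 counts, and 3 counts were 0.142 to 1.02 CPM. The scripts were tested on simulated counts. Coordinates, exon lengths and overlaps come from a GENCODE annotation of GRCh37. RefSeq promoter entries were found for 8 of the 10 members. Proteins were not analysed here.

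The members, the pathway lists and the naming rule were chosen with earlier results of these data known. Named genes were all members, VHL, all ligands and IGFBP proteases with their inhibitors, and of each other list up to 3 called genes in each direction, by size of fold change. IRS1, which was not called, was added beside IRS2. Of the genes so chosen, 1 is not reported here.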

Additional observations from a re-analysis of the deposited data

How the results depend on the processing

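IGFBP1, IGFBP3, IGFBP5, IGFBP7 and INSR kept their direction and stayed under an FDR of 0.05 in every alternative that tested them: IGFBP1 and INSR were not tested with at least 10 counts in every library, and IGFBP1 and IGFBP5 not after thinning to the shallowest library. With each library left out in turn, where the lone library of a group is assumed to vary like the other group, log2 fold changes ran from -3.05 to -1.98 for IGFBP1, from -0.77 to -0.53 for IGFBP3, from 1.05 to 1.27 for IGFBP5, from 0.39 to 0.45 for IGFBP6, from 0.83 to 0.93 for IGFBP7, from 3.56 to 5.28 for INSR, from -0.21 to -0.01 for IGFBP4, from -0.15 to 0.21 for IGF1R and from 0.028 to 0.13 for IGF2R. With library totals alone the values were 0.26 for IGF1R, 0.22 for IGF2R (both then called) and 0.0096 for IGFBP4, which reversed, and 10 pathway genes were lower in place of 22. That scaling moves the median of all genes by 0.13, and the cause of the difference between scalings was not tested.

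Thinning left IGFBP6 at 0.61 but not called, turned IGF1R to -0.0076 and PHLPP1 to 0.36, and left 2 members, 7 pathway genes and 1065 of all genes higher and 1 member, 5 pathway genes and 1351 of all genes lower. Past 4-fold with an FDR under 0.01 there were 1 member, 3 pathway genes and 360 of all genes higher and 1 member, 1 pathway gene and 190 of all genes lower. With at least 10 counts in every library, 1 member was lower, since IGFBP1 was not tested. Between 11 and 23 pathway genes were lower with a library left out, the fewest without the deeper 786-O-Ctrl library. With the longest transcript as length, IGFBP3 was 57.1% and 33.6% and IGFBP7 32.4% and 55.0% of a summed IGFBP level of 721 and 784 CPM per kb, the 786-O-Ctrl value first. No paired analysis was possible because both 786-O-Ctrl columns carry the same replicate number, so the planned fit with a replicate block was not run. Few counts limit INSR, IGFBP1 and IGFBP5 most.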

Other observations

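Within 500 kb of INSR on chromosome 19, 15 other genes were tested, of which 10 were called higher by edgeR at an FDR under 0.05 (32.6% of all genes were) and 5 were not called, with a median log2 fold change of 0.47 and a range from -0.20 to 2.29. Those not called were PNPLA6 at 0.14, XAB2 at -0.12, STXBP2 at 0.03, MCOLN1 at -0.20 and PET100 at 0.47. The highest were SH2D3A, an adaptor of integrin and receptor signaling, at 2.29 ± 0.199 (SE, adjusted p = 5.94e-11, edgeR) and ADGRE1, an adhesion receptor, at 1.71 ± 0.47 (adjusted p = 0.00234, edgeR). C3, the central complement protein, had a log2 fold change of 0.89. The window and these genes were chosen after their values were seen, and no test of the region was made. In windows of the same size, 8 of 15 genes near IGFBP4 were higher and 4 lower (median 0.32), and 8 of 22 near IGFBP6 were higher and 5 lower. Near IGFBP5, 2 of 4 were lower, and near IGFBP7 1 of 3 was higher and 1 lower. Near IGF1R 1 of 3 was higher and 1 lower, and near IGF2R 1 of 6 was higher and 3 lower. These counts stand beside 32.6% of all genes called higher and 31.9% called lower, and several of the windows hold few genes.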
